A study of Mus musculus with 25 samples.

Results

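mir-210 is the miRNA precursor named mmu-mir-210 in a deposited table of read counts per precursor hairpin. It was chosen by that name and is 1 of 1193 precursors in the table, of which 425, mir-210 included, held enough reads to be tested. The libraries came from brain hemispheres of 25 male C57BL/6 mice, an inbred laboratory strain, 5 of them aged 2 months, 5 aged 9, 5 aged 15, 5 aged 24 and 5 aged 30. The labels name no treatment, transgene or mutation in any group, so the ages differed in age alone as far as the labels go. Small RNAs were sequenced from whole-tissue RNA, and both arms of a hairpin were counted together. The table therefore does not show which arm of mir-210 gave the reads or which cells they came from. The comparison of ages asks how the level of mir-210 changed over adult life.

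miR-210 is the best-known miRNA of the response to low oxygen. Its gene is switched on by the hypoxia-inducible factor HIF-1, a transcription factor whose Hif1a subunit is destroyed when oxygen is plentiful. The mature miRNA represses mRNAs for mitochondrial function, such as the iron-sulfur cluster scaffold Iscu, and the ephrin Efna3, which restrains blood vessel growth. In brain it is known as a miRNA that is induced after ischaemia and that promotes vessel formation. Neither oxygen nor Hif1a was measured in the data used here.

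The sequences of mir-210 are shown because they bear on whether its reads could have been shared with another precursor. In RefSeq's GRCm38.p6 tables the hairpin lies at chr7:141221384-141221493 on the minus strand. It is printed with its annotated arms in capitals, the 5p arm first, and the mature arms are printed with the seed (bases 2 to 8), which pairs with target mRNAs, in capitals.
mir-210 hairpin: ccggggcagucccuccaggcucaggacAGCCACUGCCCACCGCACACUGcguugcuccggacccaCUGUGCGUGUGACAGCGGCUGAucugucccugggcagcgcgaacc
miR-210-3p: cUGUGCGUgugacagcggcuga
miR-210-5p: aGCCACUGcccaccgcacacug

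Neither seed occurred in another of the 1674 mature sequences of that table. Against 1004 other hairpins, read on both strands, the closest stretch differed from miR-210-3p at 7 of 22 bases and from miR-210-5p at 6 of 22. mir-210 thus has no near-identical copy there with which reads could have been shared, unlike the paired copies described below. The count table held more precursors, 1193, and any without an entry among those hairpins were not searched. The hairpin was rich in G and C, with 69.1% against a median of 51.7% over 1005 hairpins, and 96.7% of them had a lower share. In the GENCODE M21 annotation of GRCm38 no other gene overlapped Mir210. It lies between the coding genes Rassf7, which ends 2725 bp away, and Phrf1, which begins 7290 bp away. The nearest other annotated miRNA gene, Mir7063, lies 399 kb away, so mir-210 is no member of a miRNA cluster.

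Total counts ranged from 3.78 to 9.52 M (mega-reads) per library, with a median of 5.61 M. mir-210 received between 288 and 946 reads per library, with a median of 507, which is 0.00701% to 0.0121% of a library. Counting alone gives such numbers a relative standard error of 3.25% to 5.89%. Reads carry no molecular identifiers, so this covers counting error only. The unit below is CPM, a library's reads brought to a common size with edgeR's TMM factors applied. At a mean of 89.4 CPM over the 25 libraries, mir-210 ranked 228th of the 425 tested precursors. The neuronal precursors of mir-124 and mir-9 summed to between 35762 and 48400 CPM in every library, while the hepatocyte precursor mir-122 reached at most 5.99 CPM. The neuronal sum runs over copies of the same miRNAs and may count some reads more than once. Libraries of sequencing lane 3, 1 per age, stood apart: in 4 of the 5 ages the lane 3 library was the farthest from the others of its age. This was measured as the root mean square difference of log2(CPM + 0.5) from the mean of the others, over precursors averaging 10 CPM or more, and was 0.39 to 0.62 in lane 3 and 0.19 to 0.61 in the other lanes.

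mir-210 rose with age. Its mean was 72.1 ± 4.02 CPM in the 2-month mice and 110.2 ± 12.5 CPM in the 30-month mice (SD, n = 5 each). At 2 months the mice had 78.1, 74.0, 67.9, 70.2 and 70.1 CPM. The youngest group was thus the tightest, with a coefficient of variation of 5.58%, close to the mean counting error of 5.09%. At 9 months the values were 90.5, 104.7, 85.2, 75.4 and 78.1 CPM, with a mean of 86.8 ± 11.6 CPM. Replicate 4, at 75.4 CPM, lay within the 2-month range. The other 4 lay above it, replicate 5 only just, since at 78.1 CPM it equalled the highest 2-month mouse to the third digit.

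At 15 months mir-210 stood at 73.3, 81.6, 90.3, 83.8 and 80.7 CPM, with a mean of 81.9 ± 6.11 CPM. These mice overlapped both younger groups, although 4 of them lay above every 2-month mouse. At 24 months the values were 112, 89.1, 99.1, 89.7 and 90.4 CPM, with a mean of 96.1 ± 9.84 CPM. Every 24-month mouse lay above every 2-month mouse. At 30 months the mice had 98.9, 121, 104.7, 125.7 and 100.1 CPM. Every 30-month mouse lay above every mouse of 2 and of 15 months, and 2 of them lay above every 24-month mouse.

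**Figure D1:**
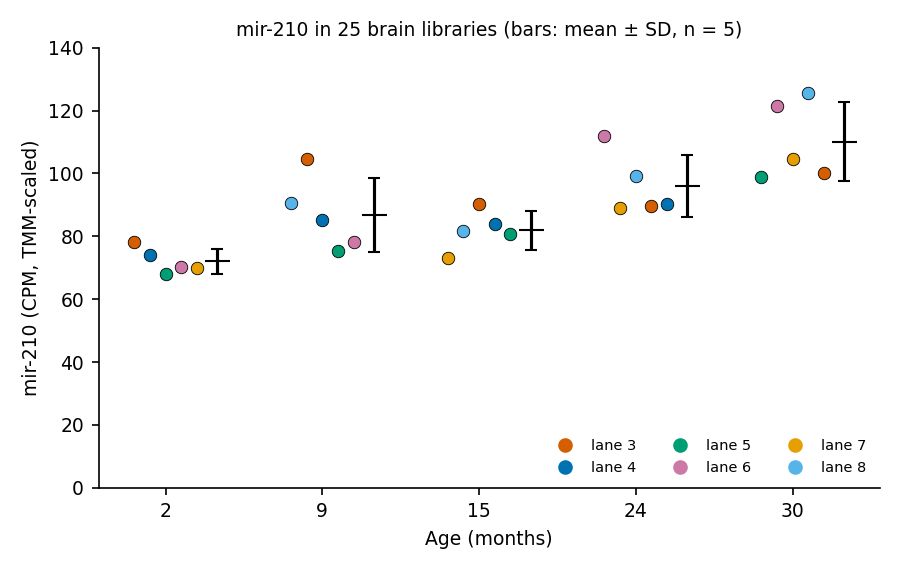
mir-210 in CPM (y axis, TMM-scaled) by age in months (x axis); each point is 1 mouse, coloured by sequencing lane, and the bars give the mean ± SD of 5 mice. The 30-month mice, from 98.9 to 125.7 CPM, all lie above the 2-month mice, from 67.9 to 78.1 CPM.

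Between 2 and 30 months the level increased 1.53-fold, which is 0.61 ± 0.09 on the log2 scale (± SE; 95% interval 0.42 to 0.80). The edgeR quasi-likelihood test gave an adjusted p of 1.37e-05 over 425 precursors. In that comparison 19.1% of all tested precursors were called higher, and mir-210 ranked 25th of 425 in the size of its rise. The levels of the 2 ages did not overlap, with the older mice higher, for 10.4% of tested precursors. Whether such a rise comes from more RNA per cell or from more cells that carry it cannot be told apart in bulk tissue. By 24 months the log2 fold change over 2 months was 0.41 ± 0.09 (adjusted p = 0.00177, edgeR; 11.1% of precursors called higher), and the level had increased 1.33-fold. The 24-month and 2-month mice did not overlap, which held for 5.65% of precursors in that direction.

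The linear slope was 0.23 ± 0.03 log2 units per 12 months, a rise of 17.5% (adjusted p = 1.15e-05, edgeR). A rising slope was called for 20.2% of precursors. It did not rest on either end of the age range. Without the 2-month mice the slope was 0.20 (adjusted p = 0.00549), and without the 30-month mice it was again 0.20 (adjusted p = 0.00364), both fits having been chosen after seeing the data. A departure of the age means from a straight line did not pass (adjusted p = 0.380, against 7.06% of precursors called), although the 15-month mean lay below the 9-month mean. Any difference among the 5 ages passed at adjusted p = 1.66e-04, as for 32.7% of precursors.

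No single interval between adjacent ages passed in the same fit. From 2 to 9 months mir-210 differed by 0.27 ± 0.09 log2 units (adjusted p = 0.0745, edgeR; 7.76% of precursors called in either direction). This call was made with DESeq2 (0.27, adjusted p = 0.0398) and in 3 of the 25 refits that each left out 1 library, those without 9-month replicate 4 (0.32), 24-month replicate 1 (0.26) or 30-month replicate 4 (0.28). From 9 to 15 months the difference was -0.08 ± 0.09 (adjusted p = 0.998; 95% interval -0.27 to 0.11), an interval in which 0 precursors were called. From 15 to 24 months the difference was 0.23 ± 0.09 (adjusted p = 0.313; 95% interval 0.04 to 0.42), where 0.235% were called. From 24 to 30 months mir-210 differed by 0.20 ± 0.09 (adjusted p = 0.198; 95% interval 0.01 to 0.39), where 8.71% were called. The longer intervals that end at 30 months did pass. The log2 fold change was 0.43 ± 0.09 from 15 months (adjusted p = 0.00265; 10.1% of precursors called higher) and 0.34 ± 0.09 from 9 months (adjusted p = 0.00900; 13.2% called higher). The 30-month and 15-month mice did not overlap, which held for 7.53% of precursors with the older mice higher.

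Ordered by mean level the ages ran 2, 15, 9, 24 and 30 months. Each pair was also compared for mir-210 alone by a two-sided exact permutation test of 5 against 5 mice, which cannot give a p below 0.00794, with adjustment over the 10 pairs. Of the 4 neighbouring pairs in that order, only 2 and 15 months differed beyond the spread between mice (adjusted p = 0.0397). The levels at 15 and 9 months (adjusted p = 0.476), 9 and 24 months (adjusted p = 0.238) and 24 and 30 months (adjusted p = 0.109) did not pass in exact permutation tests. In all, 7 of the 10 pairs passed. These include 2 against 9 and 15 against 24 months (adjusted p = 0.0397 each, exact permutation), which did not pass in the fit over all precursors. There 2 against 15 months did not pass either, at 0.19 ± 0.09 (adjusted p = 0.170, edgeR; 18.1% called in either direction), nor did 9 against 24 months, at 0.15 ± 0.09 (adjusted p = 0.515, with 0 precursors called). Under upper-quartile scaling only 2 pairs did, 24 against 2 and 30 against 2 months (adjusted p = 0.0397 each, exact permutation). Without 15-month replicate 2 the number was 3.

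Libraries were spread over 6 sequencing lanes, named in the column headers, and 4 lanes held both a 2-month and a 30-month mouse. Within lane 3 mir-210 was 78.1 CPM at 2 months and 100.1 CPM at 30 months, a difference of 0.36 on the log2(CPM + 0.5) scale. The corresponding differences were 0.54 in lane 5, 0.79 in lane 6 and 0.58 in lane 7. The 30-month mouse was thus higher in each of these lanes, and least so in lane 3. The slope within a lane was above 0 in each of the 6 lanes and ran from 0.08 per 12 months in lane 3 to 0.35 in lane 6. In lane 3 the 9-month mouse, at 104.7 CPM, was above the 30-month mouse. With lane as a covariate the log2 fold change was 0.59 (adjusted p = 2.18e-05, edgeR), and without lane 3 it was 0.65 (adjusted p = 1.58e-05).

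**Figure D2:**
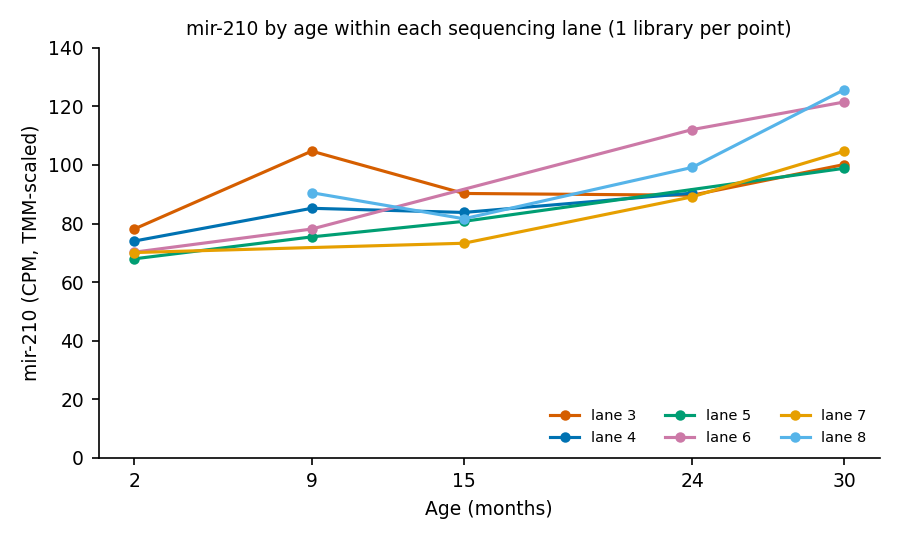
mir-210 in CPM (y axis, TMM-scaled) against age in months (x axis) within each of the 6 sequencing lanes; each point is 1 library and lines join libraries of 1 lane. The 30-month library lies above the 2-month library in the 4 lanes that hold both, and lane 3 shows the smallest difference, 0.36 on the log2 scale.

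The size of the rise was then set against that of every other precursor within the same libraries. For each of 424 precursors the log2 ratio to mir-210 was compared between 30 and 2 months with limma, which does not depend on how libraries are scaled. The ratio fell for 330 precursors, which means that mir-210 gained on them, and rose for 5, with 79.0% differing in either direction. All these ratios share the reads of mir-210 and are not independent of one another. The 5 precursors that gained on mir-210 were mir-219b, mir-219a-1, mir-155, mir-10a and mir-146a. mir-219a-1 belongs to a family that promotes oligodendrocyte differentiation, and mir-219b is annotated opposite mir-219a-2, whose change differed from that of mir-210 by 0.10 ± 0.07 and was not told apart from it. mir-219a-1 and mir-219b gained on mir-210 by 0.97 ± 0.13 and 0.97 ± 0.10 log2 units (SE; adjusted p = 6.47e-07 and 2.20e-08, limma). mir-155, induced in activated immune cells, gained 0.66 ± 0.20 (adjusted p = 0.00463), mir-10a of the Hoxb cluster 0.51 ± 0.17 (adjusted p = 0.00814) and the NF-κB-induced mir-146a 0.40 ± 0.15 (adjusted p = 0.0215). Among the 80 other precursors called higher at 30 months, mir-210 rose more than 38, less than the same 5, and was not told apart from 37.

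**Figure D3:**
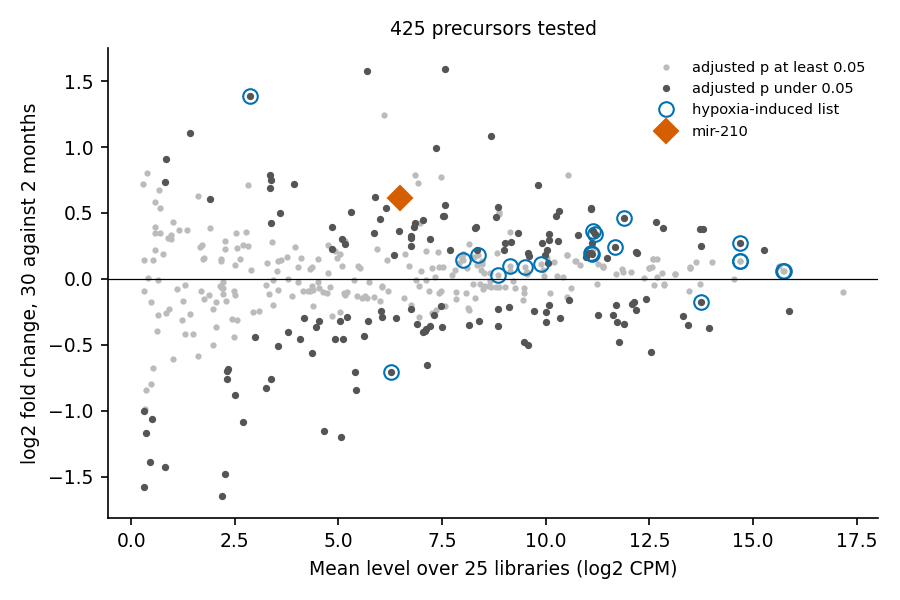
Log2 fold change from 2 to 30 months (y axis) against mean level in log2 CPM (x axis) for the 425 tested precursors; dark points passed at adjusted p under 0.05, circles mark the hypoxia-induced list and the diamond marks mir-210. mir-210 sits at 0.61, above most precursors of a similar level.

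Other miRNAs known to be induced by low oxygen or by HIF-1 were taken as a list of 20 precursors, all of which were tested. The list was chosen with earlier results of these data known, and it was not tested as a set. Between 2 and 30 months 8 rose and 2 fell, or 40% and 10%, against 19.1% and 17.9% of all tested precursors. The median log2 fold change was 0.14, against 0.05 over all 425. Under upper-quartile scaling 6 of the list rose and 2 fell, while over all precursors that scaling gave 50 higher and 91 lower, against 81 and 76 with TMM. The 8 rises were those of mir-155, mir-21a, mir-181b-1, mir-181b-2, mir-27b, mir-26b, mir-103-1 and mir-103-2. The mir-103 copies and the mir-181b copies carry identical mature sequences, as do 10 of the 20 precursors in all. Their reads may be divided between copies or counted more than once, so their values are not separate measurements. The change was smaller than that of mir-210 for 18 of the 20 and larger for mir-155 (limma on ratios).

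mir-21a, which is induced in many stress and inflammatory states, was the 1 member not told apart from mir-210. The 2-month mice had 3053 to 3451 CPM and the 30-month mice 4133 to 4861 CPM, with no overlap. mir-21a rose by 0.47 ± 0.07 log2 units (SE, adjusted p = 1.34e-05, edgeR), and its difference from mir-210 was -0.14 ± 0.10 (adjusted p = 0.214, limma). mir-155 had a mean of 4.23 ± 0.743 CPM in the youngest mice and 11.1 ± 3.10 CPM in the oldest (SD, n = 5). It rose by 1.39 ± 0.26 log2 units (adjusted p = 2.25e-04, edgeR) and had far fewer reads than mir-210. mir-181b-1 rose by 0.36 ± 0.06 and mir-103-1 by 0.20 ± 0.04. mir-26b rose by 0.24 ± 0.08 and mir-27b by 0.27 ± 0.10. The call of mir-27b (adjusted p = 0.0420, edgeR) did not hold in 16 of the 25 refits that left out a library, over which its log2 fold change ran from 0.16 to 0.29. It also failed with RLE scaling (0.25), upper-quartile scaling (0.20) and a fit to the 2 ages alone (0.24). That of mir-26b (adjusted p = 0.0143) failed with upper-quartile scaling (0.17), in a fit to the 2 ages alone (0.21), and without 2-month replicate 2 (0.19) or 3 (0.18) or 30-month replicate 5 (0.16).

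Members of the list also moved against mir-210. mir-322, the mouse counterpart of human miR-424, which stabilises HIF-1 in endothelium, fell. Its means were 104 ± 10.5 CPM in the youngest and 63.8 ± 8.41 CPM in the oldest mice (SD, n = 5), a log2 change of -0.70 ± 0.10 (SE, adjusted p = 1.34e-05, edgeR). At 2 months mir-322 had the more reads of the pair, and at 30 months mir-210 did. mir-181c fell by 0.17 on the log2 scale (adjusted p = 0.0329), a call that was lost without 2-month replicate 4 (-0.17) or 5 (-0.18), without 30-month replicate 5 (-0.17) and without a filter on low counts (-0.17). The most abundant members did not pass. mir-181a-1 lay at 0.06 ± 0.05 and mir-181a-2 at 0.06 ± 0.05, both below 0 under upper-quartile scaling, and mir-26a-2 at 0.13 ± 0.07, which passed with lane as a covariate (0.15, adjusted p = 0.0123).

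The mature sequences of the members that changed, with mir-107 for comparison, show that none shares a seed with miR-210-3p or miR-210-5p, so they are miRNAs of other families grouped by their induction. Seeds are in capitals, and the arm printed is the one known as the main product.
miR-21a-5p: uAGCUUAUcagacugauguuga
miR-155-5p: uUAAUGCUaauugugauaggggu
miR-181b-5p: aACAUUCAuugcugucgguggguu
miR-181c-5p: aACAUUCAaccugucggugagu
miR-26b-5p: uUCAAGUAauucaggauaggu
miR-27b-3p: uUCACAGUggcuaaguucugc
miR-103-3p: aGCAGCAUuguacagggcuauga
miR-107-3p: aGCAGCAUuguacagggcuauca
miR-322-5p: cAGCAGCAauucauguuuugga

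miR-181b and miR-181c share a seed, yet their precursors moved in opposite directions. miR-103 and miR-107 also share a seed. mir-107 lay at 0.11 ± 0.05 (adjusted p = 0.0617, edgeR) while mir-103-1 passed at 0.20 ± 0.04 (adjusted p = 0.00124). The difference between the members of either pair was not tested.

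A second list, chosen with the same knowledge, held 6 precursors of miRNAs known to target Hif1a itself, of which mir-20b was too low to be tested. Of the 5 tested, 2 fell and 1 rose, where 17.9% of all precursors were called lower and 19.1% higher, with a median log2 fold change of -0.02. mir-20a fell by 0.46 on the log2 scale (SE 0.12, adjusted p = 0.00513, edgeR) and mir-17, of the same miR-17~92 cluster, by 0.29 (SE 0.08, adjusted p = 0.00690). mir-199a-1 rose by 0.27 ± 0.08 (adjusted p = 0.0159). That call was lost under upper-quartile scaling (0.20) and without 2-month replicate 2 (0.21) or 3 (0.22) or 30-month replicate 5 (0.19). mir-199a-2, with the same mature sequence, lay at 0.29 ± 0.12 (adjusted p = 0.0542), and mir-18a at -0.02 ± 0.18.

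**Figure D4:**
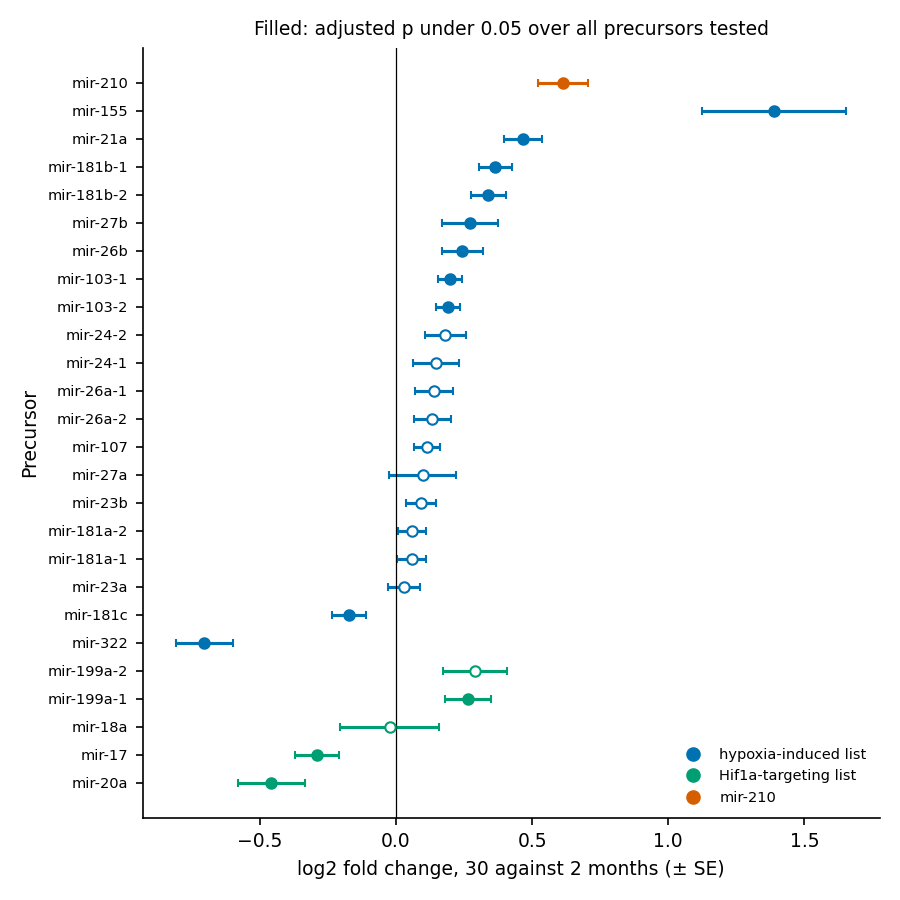
Log2 fold change from 2 to 30 months ± SE (x axis) for mir-210 and the tested precursors (y axis) of the hypoxia-induced list and of the list that targets Hif1a; filled points passed at adjusted p under 0.05 over all 425 precursors. mir-210 at 0.61 lies to the right of every listed precursor except mir-155 at 1.39.

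The precursors most like mir-210 were found by the root mean square difference of log2(CPM + 0.5), each precursor centred on its own mean, over the 25 libraries, for precursors that averaged 10 CPM or more. The median over these precursors was 0.28 log2 units. The 6 nearest were mir-3065 and mir-339 (0.15 each), mir-338 and mir-21a (0.15 each), and mir-219a-2 and mir-488 (0.16 each). mir-3065 and mir-338 are annotated on opposite strands of 1 locus and had nearly the same level, 2175 and 2173 CPM, and since the use of strand in counting is not known they are taken as 1 pattern. mir-339 was the nearest in level as well, with 59.0 ± 4.27 CPM in the youngest and 85.7 ± 11.9 CPM in the oldest mice (SD, n = 5). Its 15-month mean of 63.9 CPM also lay below its 9-month mean of 66.9 CPM. mir-219a-2 differed in its course: its mean at 24 months was 856 CPM, and it reached 1266 CPM at 30 months. From 2 to 30 months the 6 rose by 0.47 to 0.71 on the log2 scale. They were chosen for their closeness to mir-210 in these same libraries, so their likeness in size is a description and was not tested.

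**Figure D5:**
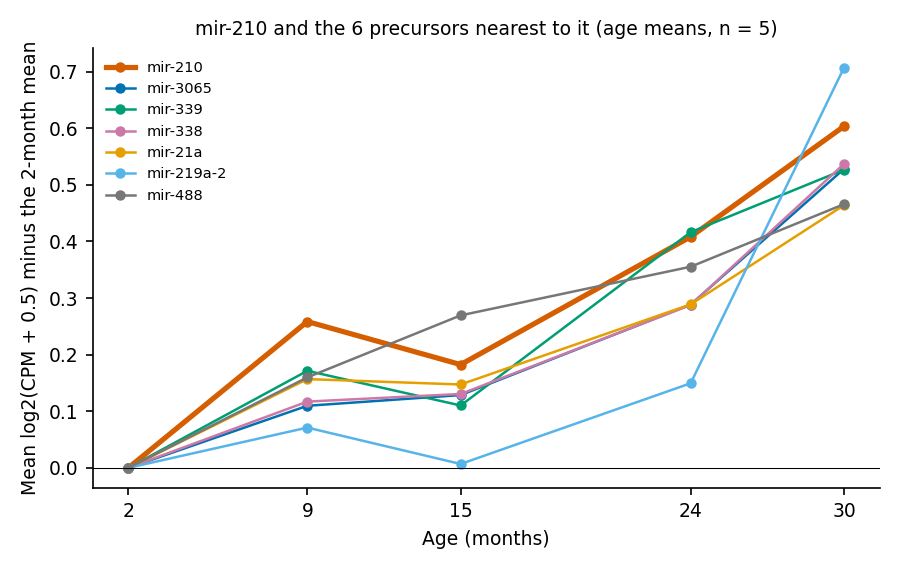
Mean log2(CPM + 0.5) at each age minus the 2-month mean (y axis) against age in months (x axis) for mir-210 (thick line) and the 6 precursors with the smallest difference from it; each point is the mean of 5 mice. mir-210 ends 0.60 above its start and mir-219a-2 turns up mainly after 24 months.

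Markers of cell types in the hemisphere were measured in the same libraries, and their counts stand against 19.1% of all precursors called higher and 17.9% lower from 2 to 30 months. All 3 oligodendrocyte precursors rose, mir-338 and both copies of mir-219a, and their summed level ran from 2487 to 2913 CPM at 2 months and from 3612 to 4554 CPM at 30 months. The mir-219a copies carry a mature sequence in common and may share reads. Of 4 tested precursors of multiciliated cells 3 rose, with sums of 1790 to 2403 CPM and 2380 to 2717 CPM. These sums were made up mostly of mir-34c, which rose by 0.27 ± 0.08. mir-449a and mir-449c also rose, with means of only 15.3 and 3.77 CPM over the 25 libraries. mir-34b lay at 0.09 ± 0.09 (adjusted p = 0.453, edgeR), and mir-449b was at 0 in 23 of 25 libraries. The changes of mir-449a and mir-449c were not told apart from that of mir-210, while those of mir-34b and mir-34c were smaller (limma on ratios). Of the oligodendrocyte precursors, mir-338 and mir-219a-2 were not told apart from mir-210 either, while mir-219a-1 gained on it. The part of oligodendrocytes and multiciliated cells in the rise of mir-210 was not tested. The endothelial precursors mir-126a and mir-126b did not pass, with sums of 10939 to 12153 CPM at 2 months and 10907 to 12592 CPM at 30 months. mir-210 gained on both (differences of -0.59 and -0.60, adjusted p = 1.30e-06 and 1.26e-06, limma on ratios).

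None of the 6 neuronal precursors passed, with log2 fold changes of 0.08 to 0.10. They are copies of mir-124 (2646 to 2652 CPM on average) and of mir-9 (11439 to 11460 CPM), so they are not 6 separate measurements. The 4 precursors of red blood cells, which spread widely, did not pass either. The red-cell sums were 2068 to 3493 CPM at 2 months and 2523 to 4999.7 CPM at 30 months, with a median log2 fold change of 0.34. These ranges, made up mostly of mir-486a and mir-486b, overlap between the ages. mir-486a and mir-486b had nearly the same mean level, 1458 and 1450 CPM, and may not be separate measurements. mir-144 alone did not overlap, at 77.6 to 104 CPM at 2 months and 106 to 230 CPM at 30 months. It lay at 0.79 ± 0.36 (adjusted p = 0.0828, edgeR), and mir-451a at 0.51 ± 0.34. A gap with the older mice higher held for 10.4% of all precursors. None of the 4 changes was told apart from that of mir-210 (limma on ratios). The part of blood in the rise of mir-210 was not tested. Of the leukocyte and microglial precursors mir-142a rose by 0.39 ± 0.12 (SE, adjusted p = 0.0119, edgeR), mir-150 fell by 0.50 on the log2 scale and mir-223 lay at 0.14 ± 0.20. Their sum, made up mostly of mir-150, was 1087 to 1244 CPM at 2 months and 914 to 1076 CPM at 30 months. The change of mir-142a was not told apart from that of mir-210, while those of mir-150 and mir-223 were smaller (limma on ratios). The 2 choroid plexus precursors did not pass, at 5761 to 6867 CPM and 6441 to 7821 CPM. Neither did the 2 of smooth muscle and pericytes, at 21657 to 25241 CPM and 21724 to 24442 CPM. Of 6 precursors of heart and skeletal muscle 2 rose, mir-133a-1 by 0.31 ± 0.08 and mir-133a-2 by 0.25 ± 0.08 log2 units. These copies had nearly the same mean level, 107.5 CPM each, and may not be separate measurements. The rest had few reads, with means of 3.39 to 4.77 CPM. mir-1a-1 lay at -0.50 ± 0.20 (adjusted p = 0.0536, edgeR), mir-1a-2 at -0.36 ± 0.26, mir-208a at 0.23 ± 0.18 and mir-208b at 0.16 ± 0.22. mir-122 of liver did not pass.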

How the data were processed

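The values are raw counts, 1 per hairpin and library, as the authors deposited them. The TruSeq small RNA kit was used, per the labels' protocols. Trimmomatic 0.36, SAMtools 1.3.1-9 and bcl2fastq 1.8.4 appear in the submitters' processing notes. How reads were aligned and counted, with which genome build, strand setting and rule for several matches, was not given in the sources used here. No animal number recurs among the titles, so libraries were taken as separate mice. Lanes come from the column names.

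edgeR 4.0.16 (R 4.3.3) kept 425 precursors by filterByExpr and scaled libraries by TMM (factors 0.952 to 1.04). A single quasi-likelihood model held every library, with age as the factor. Adjustment was by Benjamini-Hochberg over all 425, at a threshold of 0.05. Ratios to mir-210 were tested on log2(CPM + 0.5) with limma 3.58.1. Scripts were tested on simulated data. Alternatives were other scalings and filters, DESeq2 1.42.0, lane as a covariate, and libraries left out. Sequences are RefSeq's, and 25 of the 26 precursors on the 2 hypoxia lists matched its table. Python 3.11.15 and matplotlib 3.10.9 drew the plots. mir-210, the lists and the tests were chosen with earlier results of these data known.

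Named precursors were mir-210, list members that were called, the 3 most abundant hypoxia-induced members, the 6 nearest in pattern, the 2 next above and 2 next below in level, and the cell type markers. mir-107, the uncalled members of the Hif1a list and the 5 precursors that gained on mir-210 were named after their values were seen.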

Additional observations from a re-analysis of the deposited data

Results flagged for a closer look

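No mouse stood apart from the other 4 of its age in the level of mir-210. Among 130 groups of 5 mice, formed by 26 named precursors at 5 ages, 8 held a mouse whose gap to the nearest of the others was unusually wide for the group's range, where chance alone gives about 1 in 20. Of the 8 values, 5 came from lane 3 libraries: those of 15-month replicate 3, 9-month replicate 2 and 30-month replicate 5. mir-21a was at 3119 CPM in 15-month replicate 3, against 3678 to 3757 CPM in the others. mir-155 was at 7.58 CPM in 15-month replicate 4 (others 5.09 to 5.45 CPM) and at 17.8 CPM in 24-month replicate 1 (others 6.89 to 8.87 CPM). mir-27b was at 33044 CPM in 9-month replicate 2 (others 23402 to 24437 CPM). mir-488 was at 412 CPM in 2-month replicate 2 (others 356 to 371 CPM). In 30-month replicate 5 mir-488 was at 602 CPM (others 487 to 515 CPM), mir-92a-2 at 124.2 CPM (others 98.8 to 101.1 CPM) and mir-181c at 11533 CPM (others 13368 to 13822 CPM).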

How the results depend on the processing

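The rise of mir-210 from 2 to 30 months, its slope and its difference among the 5 ages kept their direction and passed in every alternative run. The log2 fold change ran from 0.55 to 0.65 over 9 alternatives and from 0.54 to 0.61 over 25 refits without 1 library (largest adjusted p of all, 4.45e-04), and the slope from 0.20 to 0.26. The main estimate of the fold change, 0.612, lay just above the highest of the 25 refits, 0.611. The difference from 2 to 9 months passed with DESeq2 (0.27) and ran from 0.21 to 0.32 without 1 library. The number of pairs of ages past the exact permutation test was 2 under upper-quartile scaling and 3 to 8 without 1 library. The hypoxia-induced list had 6 to 11 rises over 9 alternatives, the most with lane as a covariate, and 6 to 9 rises without 1 library. It had 1 fall without a filter, and 1 to 2 falls without 1 library. The list that targets Hif1a had 0 rises under upper-quartile scaling, 2 with lane as a covariate and 0 to 2 without 1 library. mir-181a-1 lay at -0.010 and mir-181a-2 at -0.0072 under upper-quartile scaling, and mir-181a-1 ran from -0.0017 (without 30-month replicate 3) to 0.0587 without 1 library. The cause was not tested. Upper-quartile scaling gave 50 precursors higher and 91 lower from 2 to 30 months, against 81 and 76 with TMM. The number of precursors whose change differed from that of mir-210 ran from 273 to 361. No paired analysis was possible because each library is a different mouse and its replicate number is only a name. Lanes, which ages do share, entered as a covariate (0.59 for mir-210).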

Other observations

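Among the 40 tested precursors nearest to mir-210 in mean level, from 52.4 to 132 CPM, 12 were called higher and 8 lower at 30 months, where 19.1% and 17.9% of all tested precursors were. They had a median log2 fold change of 0.08, and 4 of them had a larger rise than mir-210. Its spread within an age, an SD of 0.14 on the log2 scale, was near their median of 0.15, and 14 of the 40 spread less. Next above it in level were mir-92a-2 with 96.5 CPM (0.19 ± 0.12, adjusted p = 0.207, edgeR) and mir-190a with 95.98 CPM (-0.14 ± 0.07, adjusted p = 0.0845, a call made under RLE scaling at -0.17 and in 14 of the 25 refits without 1 library). Next below were mir-185 with 88.6 CPM, which rose by 0.36 ± 0.08 (adjusted p = 8.88e-04), and mir-194-2 with 83.9 CPM, which fell by 0.30 on the log2 scale (adjusted p = 0.0143).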
